A study of Mus musculus with 56 samples.

Results

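Fast-cycling and slow-cycling tumors were the 28 tumors, of 56 p53null mouse mammary tumors on the arrays, that lay at the ends of a proliferation score. Members were chosen by that score, the mean log2 intensity of Mki67, Top2a and Bub1, ranked separately among the 32 tumors of wild-type hosts and the 24 tumors of Tgfb1 heterozygote hosts. The rule also names Ccnb1, which no probe set carries in the annotation used here, so 3 of its 4 genes were scored. The 8 highest and 8 lowest tumors of wild-type hosts and the 6 highest and 6 lowest of heterozygote hosts gave 14 fast and 14 slow tumors, and the other 28 tumors lay between them. Each tumor had grown from an unirradiated fragment of p53null mammary epithelium placed in the fat pad of a female BALB/c mouse, whose own gland epithelium had been cleared at 3 weeks of age. Hosts were irradiated or sham-treated 3 days before transplantation, and the sources used here do not give the radiation dose. The fast tumors came from 3 sham and 5 irradiated wild-type hosts and from 2 sham and 4 irradiated heterozygote hosts. The slow tumors came from 2 sham and 6 irradiated wild-type hosts and from 1 sham and 5 irradiated heterozygote hosts. All of these tumors therefore lack p53, and the host genotype and treatment describe the animal around the transplant, not the tumor cells. Whether any 2 tumors came from 1 animal is not stated, so a p-value reflects only the spread among these arrays.

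A dividing cell copies its DNA in S phase and then builds a spindle, attaches it to the kinetochores of paired chromosomes and pulls the copies apart. E2F factors drive the genes of replication, and the B-MYB and FOXM1 proteins drive those of mitosis, many of which carry CCAAT boxes and a short element called the CHR near their start. Mki67 encodes the Ki-67 antigen of dividing cells, Top2a the topoisomerase that untangles copied DNA, and Bub1 a kinase of the spindle checkpoint, so a tumor scores high when more of its cells are dividing or when each dividing cell holds more of these messages. In RNA of whole tumors these possibilities cannot be told apart.

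The upstream sequences of 4 mitosis genes are shown because these genes stood furthest apart between the tumor groups among the mitosis genes that the RefSeq promoter table (GRCm38.p6) holds. Each gives up to 250 bases before the transcript start that this table uses, on the + strand, at chr3:159495183-159495432 for Depdc1a, chr3:135212313-135212562 for Cenpe, chr2:118597961-118598210 for Bub1b and chr5:45669675-45669920 for Ncapg. RefSeq's gene record starts further upstream for 3 of them, so the last 19 bases shown for Depdc1a, 9 for Bub1b and 30 for Ncapg lie within the gene as recorded. Capitals mark the CHR letters TTTGAA and the CCAAT box, each on either strand.
Depdc1a: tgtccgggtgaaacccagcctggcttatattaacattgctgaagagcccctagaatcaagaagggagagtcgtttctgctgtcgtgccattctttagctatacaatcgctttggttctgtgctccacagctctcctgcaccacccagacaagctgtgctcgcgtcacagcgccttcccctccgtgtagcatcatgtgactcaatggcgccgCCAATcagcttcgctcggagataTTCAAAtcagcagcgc
Cenpe: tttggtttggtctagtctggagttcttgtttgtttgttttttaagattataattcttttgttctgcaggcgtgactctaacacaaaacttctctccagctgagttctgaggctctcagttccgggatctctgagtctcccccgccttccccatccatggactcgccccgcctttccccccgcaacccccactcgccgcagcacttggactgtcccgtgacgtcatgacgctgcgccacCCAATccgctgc
Bub1b: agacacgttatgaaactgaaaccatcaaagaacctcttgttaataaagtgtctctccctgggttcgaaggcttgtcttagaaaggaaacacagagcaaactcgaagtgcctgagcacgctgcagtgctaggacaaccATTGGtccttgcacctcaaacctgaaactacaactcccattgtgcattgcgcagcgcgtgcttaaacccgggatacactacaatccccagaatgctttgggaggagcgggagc
Ncapg: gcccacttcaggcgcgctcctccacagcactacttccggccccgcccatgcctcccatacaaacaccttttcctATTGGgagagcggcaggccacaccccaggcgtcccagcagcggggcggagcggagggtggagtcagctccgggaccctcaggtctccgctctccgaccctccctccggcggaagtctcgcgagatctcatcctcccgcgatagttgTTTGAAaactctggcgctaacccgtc

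Depdc1a held the CHR letters at -16 to -11 and a CCAAT box at -39 to -35, counted from the base before the table's transcript start as -1. Ncapg held them at -30 to -25 and at -176 to -172, and Cenpe and Bub1b held a CCAAT box alone within these bases. Of the 65 tested mitosis genes with a promoter in the table, 70.8% held CCAAT and 35.4% held TTTGAA, against 34.5% and 16.3% of all 27025 promoters of the same length and 36.1% and 10.4% of the 10052 among the genes tested. Among 38 genes of replication and the G1/S step, 23.7% held one of the E2F letters TTTGGCGC, TTTGCCGC, TTTCGCGC or TTTCCCGC on either strand, against 1.91% of all promoters and 3.47% of those of the genes tested. The genes called higher in fast tumors outside the cell cycle lists, described below, held CCAAT in 48.9%, TTTGAA in 16% and E2F letters in 8% of 225 promoters, and those called lower held CCAAT in 44.4% and TTTGAA in 13.9% of 36. Motifs were counted separately and could overlap, and a match describes letters in this window, not a bound site.

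The score ran from 11.11 to 11.43 (median 11.23) in the fast tumors of wild-type hosts and from 9.24 to 10.41 (median 10.26) in the slow tumors. In heterozygote hosts it ran from 10.92 to 11.33 (median 11.05) in the fast and from 9.15 to 10.23 (median 10.05) in the slow tumors. No wide gap marked the borders. In wild-type hosts the lowest fast tumor scored 11.11 and the next tumor below it 11.07, and the highest slow tumor 10.41 and the next above it 10.42. In heterozygote hosts these pairs were 10.92 and 10.90, and 10.23 and 10.23. Bub1 spanned 9.90 to 10.68 in the fast and 8.03 to 9.27 in the slow tumors of wild-type hosts, with no overlap, whereas Mki67 spanned 11.36 to 12.36 and 10.01 to 11.38, so its groups overlapped. The 3 genes moved together over the 56 tumors, with Pearson r of 0.85 between Top2a and Bub1, 0.70 between Mki67 and Bub1 and 0.63 between Mki67 and Top2a after each host genotype was centred. These values chose the tumors and were not tested.

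**Figure D1:**
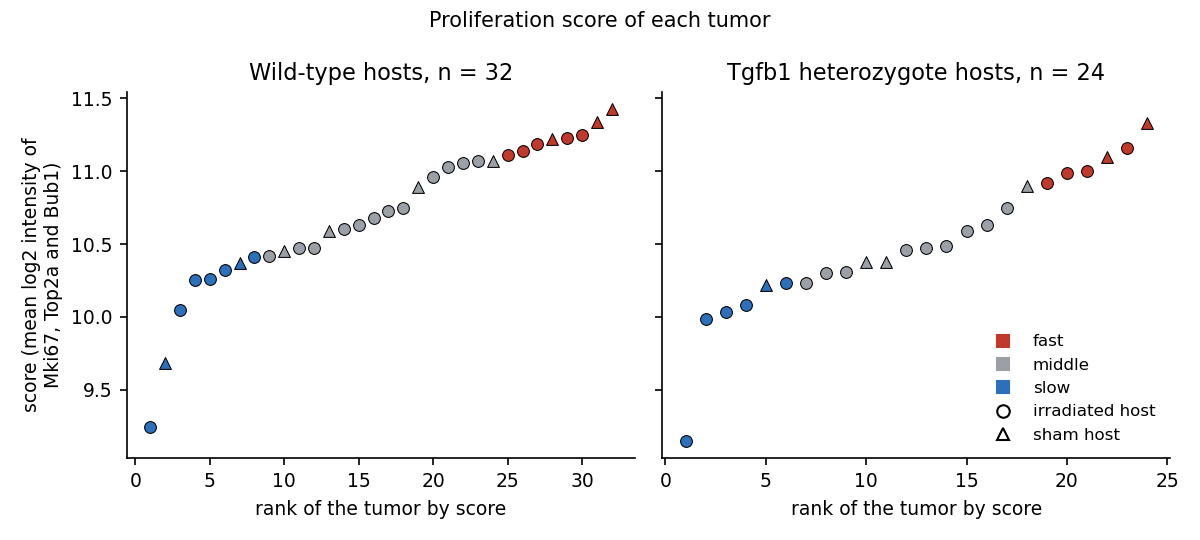
Proliferation score of each tumor (y axis, mean log2 intensity of Mki67, Top2a and Bub1) against its rank (x axis) in wild-type hosts, n = 32, and Tgfb1 heterozygote hosts, n = 24. Red points are the fast, blue the slow and gray the middle tumors, with circles for irradiated and triangles for sham hosts, and the lowest tumor of each panel lies apart at 9.24 and 9.15.

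Several tumors stood apart in ways other than division. The lowest-scoring tumor of each host genotype, from irradiated hosts and labelled 57 (wild type) and 4 (heterozygote), had the highest differences between 3′ and 5′ control probe sets among the slow tumors of their genotype, a sign of RNA breakdown, at 0.91 and 0.56 log2 units, against medians of 0.21 and 0.32 in those groups. The fast tumors ranged from 0.15 to 0.30 and from 0.14 to 0.33. Over all 28 tumors the fast minus slow difference of this measure was -0.09 (permutation within host genotype, two-sided, p = 0.0713, adjusted over 4 control measures p = 0.285). The mean of 23 endothelial genes reached 11.51 in a slow tumor labelled 46 (sham wild-type host), where the median of that group was 7.44, and 9.81 in a slow tumor labelled 23 (irradiated heterozygote host). Among the fast tumors, those labelled 60, 25 and 15 had mean epithelial junction levels of 6.40, 6.74 and 7.70, where the group medians were 10.15 in wild-type and 9.995 in heterozygote hosts. The part of these features in the differences was not tested, and results are given with and without the tumors concerned where that changes them. The 18S control was under 11 on 2 fast and 3 slow arrays.

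Fast tumors were compared with slow tumors by limma, with host genotype as a block, on 12505 genes other than the score genes. After Benjamini-Hochberg adjustment at 0.05, 411 genes were higher in fast tumors (3.29% of all genes) and 50 were lower (0.400%). The median difference over all genes was 0.0027, and 50.5% of genes were higher in fast tumors. The differences of the 411 genes ran from 0.25 to 1.49 on the log2 scale (median 0.68), and 72 of them reached 2-fold. Those of the 50 genes ran from -0.30 to -2.71 (median -0.56), and 10 reached 2-fold. The tumors were picked on the same arrays, so these counts describe what moved with the score and are no test of a treatment. Of the 411 genes, 151 belong to 5 lists of cell cycle genes and 260 do not, and of the 50 genes 1, Rb1, belongs to them. The lists do not hold every gene of cell division, so the 260 genes are not independent of the score.

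The counts were taken again without tumors that stood apart, which also leaves fewer tumors in the fit. Without the 3 slow arrays of highest 3′ minus 5′ difference (labelled 57, 4 and 23, at 0.46 and above), 260 genes were higher, 257 of them among the 411, and 34 were lower, 24 of them among the 50. With that difference as a covariate and all 28 tumors kept, 302 were higher and 50 lower. Without the slow tumors labelled 46 and 23, 344 were higher and 51 lower. Without the fast tumors labelled 60, 25 and 15, a choice made like the others after seeing the data, 358 were higher and 45 lower, of which 318 and 24 were among the 411 and the 50.

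Genes of mitosis were the furthest apart. All 79 tested genes of that list, of 81 listed, were higher in fast tumors, with a median difference of 1.02 (2.02-fold) and a range of 0.07 to 1.49. Kif20a, a kinesin of the cleavage furrow, ran from 9.27 to 10.28 (median 9.61) in fast and from 6.87 to 8.53 (median 8.19) in slow tumors of wild-type hosts. In heterozygote hosts it ran from 9.06 to 9.60 (median 9.20) against 7.09 to 8.70 (median 8.19), a mean difference of 1.49 ± 0.17 (SE) over both hosts. Every fast tumor lay above every slow tumor of its host genotype. Cenpe, the kinetochore motor whose upstream sequence is shown, ran from 9.23 to 10.18 in fast and 7.04 to 8.59 in slow tumors of wild-type hosts, and from 8.78 to 9.65 against 7.31 to 8.48 in heterozygote hosts, again without overlap. The differences of Depdc1a, Bub1b, a component of the spindle checkpoint, and Ncapg, a condensin subunit, were 1.40, 1.34 and 1.32, and that of Tpx2, which activates Aurora A on the spindle, was 1.38. The smallest of the list was Bub3, a partner of Bub1 in the checkpoint, at 0.07 ± 0.16 (SE), with 0.20 in wild-type and -0.10 in heterozygote hosts. Of the fast tumors 11 of 14 lay above the slow median of their host for Bub3, and a slow tumor of a heterozygote host reached 13 where the median was 11.25. These genes share the function that the score was built from, so their values are a description, and the 76 of 79 that passed the threshold are no separate evidence.

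Genes of replication stood apart by less. All 48 had a positive difference, with a median of 0.68 (1.60-fold), and 38 passed the threshold. Gins1, a subunit of the replicative helicase, led with 1.22 and ran from 8.56 to 9.50 in fast and 6.65 to 8.33 in slow tumors of wild-type hosts, and from 8.31 to 8.96 against 6.68 to 8.02 in heterozygote hosts. Dtl, which directs the licensing factor Cdt1 to destruction, followed with 1.21, and Cdc6, which loads the helicase, with 1.07, whereas the polymerase subunit Pold1 differed by 0.31 ± 0.21 (SE). All 14 fast tumors lay above the slow median of their host for Pold1, and a slow tumor of a wild-type host reached 11.18 where the median was 9.03. The list medians without the 3 arrays of high 3′ minus 5′ difference were 0.86 for mitosis and 0.54 for replication, and all 79 and all 48 genes kept a positive sign.

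Most DNA repair genes also had a positive difference, 37 of 40, with a median of 0.47, and 19 passed the threshold. Brca1, of homologous recombination, differed by 1.18, Clspn, which relays the replication checkpoint, by 1.07 and Exo1, a nuclease, by 1.03. The exceptions were Fancg (-0.09), Fancc (-0.33) and Lig4, the ligase of end joining, whose difference was -0.80, with -0.63 in wild-type and -1.03 in heterozygote hosts. All 26 genes of chromatin in dividing cells had a positive difference (median 0.39), from 0.12 for Cbx3 to 0.94 for the histone H2ax, and 11 passed the threshold. Among 20 cell cycle transcription factors 15 had a positive difference, 8 passed the threshold as higher and the median was 0.29. As for mitosis, these counts are a description, where 3.29% of all genes were called higher. The activator Mybl2, which encodes B-MYB, differed by 1.10, the atypical repressor E2f7 by 0.97, Foxm1 by 0.96, E2f8 by 0.86 and E2f1 by 0.59, whereas E2f2 had a difference of -0.20 and Rbl2 of -0.12.

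Rb1, the retinoblastoma gene that holds E2F factors in check, was the lowest of these factors. Its levels ran from 7.94 to 9.58 (median 8.91) in fast and from 8.83 to 10.74 (median 10.20) in slow tumors of wild-type hosts. In heterozygote hosts they ran from 8.28 to 9.89 (median 8.92) against 8.70 to 12.18 (median 9.48). The groups overlapped in both hosts, and 13 of 14 fast tumors lay at or below the slow median of their host. The mean difference was -1.05 ± 0.28 (SE), with -1.16 in wild-type and -0.91 in heterozygote hosts. It fell short of the threshold in 9 of 23 alternative settings, among them narrower groups, a score without Bub1, the regression over all tumors and the fit without the fast tumors labelled 60, 25 and 15 (-1.03, adjusted p = 0.0668), and with each of 5 single tumors left out (differences of -0.97 to -1.02). In the 28 middle tumors the slope of Rb1 on the score was -0.22 ± 0.46 (SE), which is smaller than its error.

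**Figure D2:**
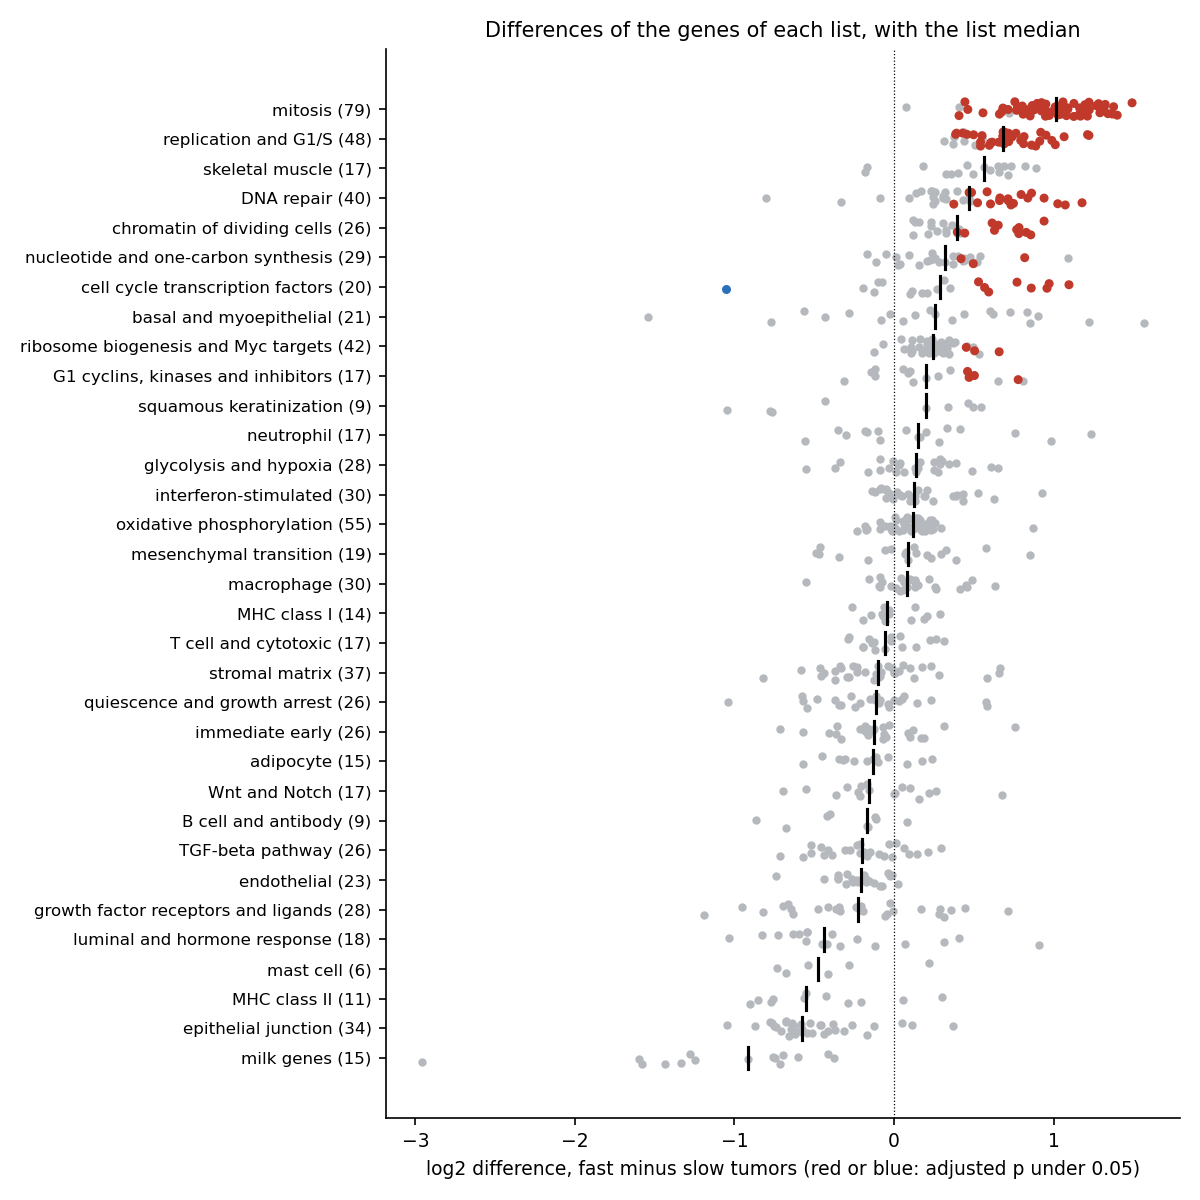
Log2 difference between fast and slow tumors (x axis) of every tested gene of 33 gene lists (y axis, number of genes in brackets), with a black bar at each list's median. Red and blue points are genes past an adjusted p of 0.05, and the medians run from 1.02 for mitosis to -0.92 for milk genes.

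Outside the 5 lists the 15 genes with the lowest p were Ddias, Arhgap11a, Ercc6l, Oip5, Cip2a, Pif1, Atad2, Mastl, Mtbp, Knstrn, Efcab11, Dlgap5, Nsl1, Ska3 and Eme1, with differences of 0.72 to 1.27. They include Mastl, the Greatwall kinase that keeps mitotic phosphatase activity down, Oip5 of the complex that marks centromeres, Nsl1 and Ska3 of the kinetochore, Ercc6l, a helicase of anaphase bridges, and Eme1, a partner of the Mus81 nuclease. Genes of mitosis among them share the function of the score although the lists do not hold them, so their calls are no separate evidence. Ddias, a suppressor of apoptosis after DNA damage, had the lowest p. It ran from 7.25 to 7.75 (median 7.50) in fast and from 6.53 to 6.94 (median 6.73) in slow tumors of wild-type hosts, and from 6.77 to 7.32 (median 6.98) against 5.91 to 6.21 (median 6.03) in heterozygote hosts. It rose by 0.85 ± 0.08 (SE), 1.80-fold (limma, adjusted p = 4.28e-07), with no overlap in either host. Mastl ran from 7.59 to 8.63 in fast and 6.10 to 7.48 in slow tumors of wild-type hosts, and from 7.43 to 8.45 against 6.47 to 7.07 in heterozygote hosts. It rose by 1.02 ± 0.14 (SE), 2.03-fold (limma, adjusted p = 2.12e-05), and again no fast tumor overlapped the slow ones of its host. Each of the 15 genes kept its call under every alternative setting that tested it, other than the 12 tumors of heterozygote hosts alone. There Ddias kept it and the other 14 did not. Efcab11 lay too low for the stricter filter, which asks for 28 arrays above 5.83, and was not tested under it.

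Far fewer genes fell. Cd55, which shields cells from complement, had the lowest p. It ran from 4.30 to 5.24 (median 4.77) in fast and from 5.14 to 7.77 (median 6.63) in slow tumors of wild-type hosts, and from 4.29 to 6.05 (median 4.61) against 4.98 to 6.83 (median 5.42) in heterozygote hosts. In 11 of 14 fast tumors it lay below every slow tumor of the host, and only 1 fast array exceeded 5.83, the median of all values used as the filter, against 7 slow arrays. Cd55 so passed the filter mainly through the slow tumors where it is high. It fell by 1.35 ± 0.26 (SE) on the log2 scale (limma, adjusted p = 0.00144, and 0.00204 with no filter). Zbtb4, a repressor that binds methylated DNA, ran from 9.00 to 9.87 in fast and 9.74 to 10.41 in slow tumors of wild-type hosts, and from 8.55 to 9.40 against 8.91 to 9.94 in heterozygote hosts. It fell by 0.61 ± 0.12 (SE), 1.52-fold (limma, adjusted p = 0.00184). Slc22a5, the carnitine transporter, ran from 7.74 to 8.77 against 8.46 to 9.02 in wild-type and from 7.74 to 8.33 against 8.30 to 8.76 in heterozygote hosts, and fell by 0.47 ± 0.10 (SE) (limma, adjusted p = 0.00327).

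The other 12 genes named by the lowest p among those that fell did so by 0.34 to 1.16. They were Pyroxd2, the chloride and proton exchanger Clcn4, the deubiquitinase Mindy2, Rabac1, the protocadherin Pcdhb7, S100a13, Arhgef6, which activates Rac, Smim14, Vps13d, the atypical protein kinase C Prkcz, Ypel5 and the mitochondrial sodium and calcium exchanger Slc8b1. Without the 3 arrays of high 3′ minus 5′ difference Pcdhb7, Ypel5 and Slc8b1 lost the call, with adjusted p of 0.0816, 0.0550 and 0.0837 and differences of -0.99, -0.39 and -0.49 against -1.16, -0.46 and -0.54, and the other 12 of the 15 kept it. Without the arrays of low 18S Clcn4 and Pcdhb7 had an adjusted p of 0.0509, Ypel5 of 0.125 and Slc8b1 of 0.114. Without the fast tumors labelled 60, 25 and 15 Rabac1 (-0.44, adjusted p = 0.0618) and Prkcz (-0.74, adjusted p = 0.0745) lost it. Of the 12 genes, 10 lost the call with narrower groups, and Prkcz lost it in 8 of 23 settings, joint quantile normalization and the regression over all tumors among them. The largest fall among called genes, picked after the values were seen, was that of Dmp1, a matrix protein of bone and dentin, at -2.71 ± 0.69 (SE) (limma, adjusted p = 0.0199). Its levels ran from 3.52 to 6.37 (median 4.62) in fast and from 4.02 to 12.17 (median 7.755) in slow tumors of wild-type hosts. In heterozygote hosts they ran from 3.79 to 7.98 (median 5.55) against 5.20 to 9.88 (median 7.24). Slow tumors of wild-type hosts spread widely and the groups overlapped in both hosts, but 12 of 14 fast tumors lay at or below their host's slow median. Without those 3 arrays the difference of Dmp1 was -2.17 (adjusted p = 0.129). Sparcl1, another matrix protein chosen in the same way, fell by 1.38 ± 0.36 (SE) (limma, adjusted p = 0.0254), and its difference was -1.27 (adjusted p = 0.0943) without them.

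**Figure D3:**
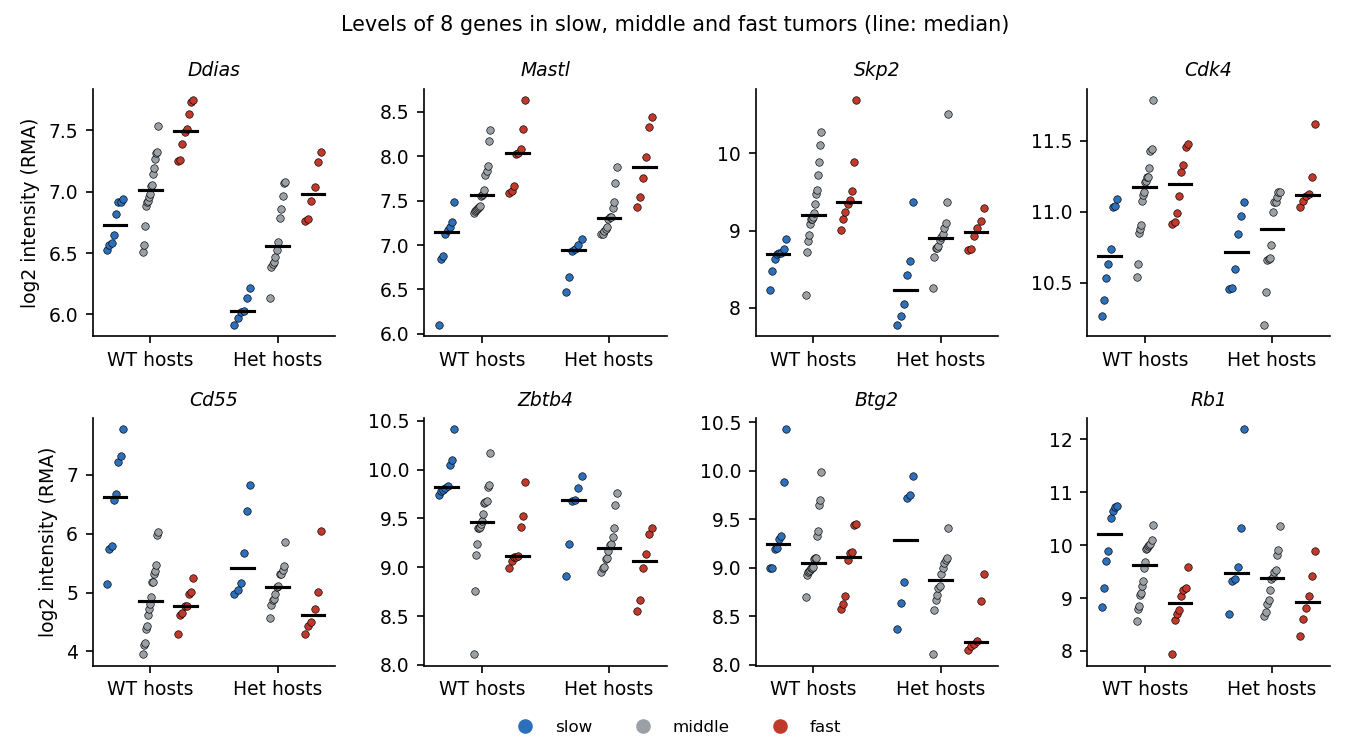
RMA log2 intensity (y axis) of 8 genes in each tumor, in slow (blue), middle (gray) and fast (red) tumors of wild-type (WT) and Tgfb1 heterozygote (Het) hosts, with a line at each median. Ddias and Mastl do not overlap between fast and slow tumors of a host, whereas Skp2, Cdk4, Cd55, Zbtb4, Btg2 and Rb1 do in at least 1 host.

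Of 17 G1 cyclins, kinases and inhibitors, which commit a cell to division, 4 rose by the test and none fell, where 3.29% of all genes rose, and the list median was 0.20. Skp2, which marks the inhibitor p27 for destruction, ran from 9.01 to 10.69 (median 9.37) in fast and 8.24 to 8.90 (median 8.70) in slow tumors of wild-type hosts, and from 8.74 to 9.30 (median 8.98) against 7.78 to 9.37 (median 8.24) in heterozygote hosts. It rose by 0.78 ± 0.16 (SE), 1.72-fold (limma, adjusted p = 0.00219), and the groups overlapped in heterozygote hosts alone. Cdk4, the kinase of the D cyclins, ran from 10.92 to 11.48 against 10.27 to 11.09 in wild-type and from 11.03 to 11.62 against 10.46 to 11.07 in heterozygote hosts, and rose by 0.47 ± 0.10 (SE) (limma, adjusted p = 0.00484), a call lost without the 5 arrays of low 18S (adjusted p = 0.0514). Cdkn2d, an inhibitor of that kinase, rose by 0.50 ± 0.11 (adjusted p = 0.00393), and the phosphatase Cdc25a by 0.46 ± 0.13 (adjusted p = 0.0319), a call lost with any of 9 single tumors left out, with adjusted p up to 0.0610, and in 11 of 23 alternative settings. Cdkn2d lost its call in 5 of them, wider groups and a score without Mki67 among these. The cyclins Ccnd1, Ccnd2 and Ccnd3 had differences of 0.09, -0.12 and 0.06, and the inhibitors Cdkn1a and Cdkn1b, which encode p21 and p27, of -0.14 and 0.10. Each of these was smaller than its standard error, and the signs of Ccnd1, Cdkn1a and Cdkn1b changed under other settings.

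Most genes of growth in mass had a positive difference, and some passed the test. Of 42 genes of ribosome biogenesis and Myc targets 40 had a positive difference, with a median of 0.25, and 3 rose by the test, where 3.29% of all genes did, namely Nop56 (0.66), Ranbp1 (0.45) and Eif4e (0.51). Nop56, of the ribosomal RNA methylation complex, ran from 10.37 to 11.22 in fast and 9.20 to 10.44 in slow tumors of wild-type hosts, and from 10.43 to 11.16 against 9.67 to 10.79 in heterozygote hosts (limma, adjusted p = 0.00239). Of 29 genes of nucleotide and one-carbon synthesis 26 were positive, with a median of 0.32, and 3 rose, again against 3.29% of all genes. These were Ppat (0.42), the first enzyme of purine synthesis, the mitochondrial folate enzyme Mthfd2 (0.82) and Ahcy (0.50). Without the 3 arrays of high 3′ minus 5′ difference Ranbp1, Eif4e, Mthfd2 and Ahcy lost the call, with differences of 0.32, 0.44, 0.72 and 0.41 and adjusted p of 0.0556, 0.0955, 0.0837 and 0.124, while Nop56 and Ppat kept it, and Ppat lost it without the arrays of low 18S (adjusted p = 0.0792). Glycolysis and hypoxia genes (28, median 0.13) and oxidative phosphorylation genes (55, median 0.12) had no called member, and both medians shrank to -0.012 and 0.04 without those arrays.

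Of the 26 genes of quiescence and growth arrest none passed the test in either direction, and 19 had a negative difference (median -0.12). Btg2, an antiproliferative gene and the member with the lowest p, ran from 8.58 to 9.45 (median 9.12) in fast and 8.99 to 10.43 (median 9.25) in slow tumors of wild-type hosts, and from 8.15 to 8.94 (median 8.23) against 8.37 to 9.95 (median 9.28) in heterozygote hosts. Its difference was -0.57 ± 0.18 (SE) (limma, adjusted p = 0.0708). This list and 24 others, with 538 distinct tested genes, held no gene that limma called, and 11 of those genes were higher and 32 lower at an unadjusted p under 0.05. Of the 32, 5 were milk genes and 5 MHC class II genes.

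No gene of the milk, epithelial junction or luminal and hormone response lists passed the test. All 15 milk genes had a negative difference (median -0.92, with -1.69 in wild-type and -0.27 in heterozygote hosts). Csn1s2a, a casein, ran from 3.74 to 13.36 (median 8.20) in fast and 8.44 to 13.78 (median 12.32) in slow tumors of wild-type hosts, and from 4.21 to 12.78 (median 10.05) against 9.46 to 13.40 (median 11.16) in heterozygote hosts. Its difference of -2.96 had a standard error of 0.99 (adjusted p = 0.0995). Of 34 epithelial junction genes 31 were negative (median -0.58), and among 18 luminal and hormone response genes 14 were (median -0.44). All 3 medians changed with few tumors left out. Those of the epithelial junction and luminal lists also changed with joint quantile normalization, which also ranked the tumors anew. The part of each step was not tested. Without the fast tumors labelled 60, 25 and 15 the epithelial junction median was 0.13, with 27 of 34 genes positive, the luminal median -0.05 and the milk median -0.47. With all arrays quantile normalized together the epithelial junction and luminal medians were -0.29 and -0.05, and the milk median was -0.997. In heterozygote hosts the mean of the milk genes had a median of 9.54 in fast and 9.32 in slow tumors. Gata3, a luminal transcription factor, had a difference of -1.04 ± 0.32 (SE) (adjusted p = 0.0762), which became -1.26 (adjusted p = 0.0195) without the slow tumors labelled 46 and 23. Esr1, the estrogen receptor, had a difference of -0.39 ± 0.39 (SE) (adjusted p = 0.699). The mean of the epithelial junction genes had nearly equal medians in fast and slow tumors, at 10.15 and 10.34 in wild-type and 9.995 and 9.91 in heterozygote hosts. Among fast and slow tumors its lowest values lay in the fast tumors labelled 60, 25 and 15. Middle tumors reached values as low, at 5.86 and 6.24 in those labelled 59 and 11 (wild-type hosts). In the middle tumors labelled 29 and 7 (heterozygote hosts) it was 7.63 and 7.69. With the epithelial junction mean as a covariate 458 genes were higher and 68 lower.

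The lists of markers of other cells of the tumor held no called member. Of 23 endothelial genes 22 were negative (median -0.21), but 21 of 23 were positive (median 0.33) without the slow tumors labelled 46 and 23. Of 11 genes of MHC class II 9 were negative (median -0.55), led in size by H2-Eb1 and by H2-Aa, whose difference was -0.85 ± 0.38 (SE) (adjusted p = 0.255). The 17 T cell genes (median -0.05) and the 30 macrophage genes (median 0.08) lay close to the median of all genes. The medians of 37 stromal matrix genes (-0.10) and 30 interferon-stimulated genes (0.12) turned sign, to 0.15 and -0.16, without the 3 arrays of high 3′ minus 5′ difference. With all arrays quantile normalized together and the tumors ranked anew they kept their signs, at -0.17 and 0.39. Without the fast tumors labelled 60, 25 and 15 the macrophage, stromal matrix and endothelial medians were -0.15, -0.46 and -0.43. Skeletal muscle genes had a median of 0.56, with 0.06 in wild-type and 1.21 in heterozygote hosts. Their mean reached 8.82 in fast and 6.06 in slow tumors of heterozygote hosts, and 10.23 in the fast tumor labelled 60 where the median of its group was 5.11. Of the 26 genes on the TGF-beta pathway list 20 were negative (median -0.20), and genes off the list were not counted. Tgfb1 itself had a difference of -0.15 ± 0.30 (SE) (adjusted p = 0.869), with -0.37 in wild-type and 0.15 in heterozygote hosts, and Tgfbr1, a receptor, of -0.39 ± 0.15 (adjusted p = 0.166).

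The 2 host genotypes share no array, so each gives its own values. All 411 genes were positive and all 50 genes negative in the tumors of wild-type hosts alone and in those of heterozygote hosts alone, as a call over both tends to require. Over the 12293 genes outside the cell cycle lists the differences of the 2 hosts had a Pearson r of 0.37, a description across genes that are not independent. In wild-type hosts alone 154 genes were higher and 5 lower, and in heterozygote hosts alone 3 were higher and 0 lower, with 1265 and 997 genes at an unadjusted p under 0.05. The difference between the hosts was itself tested as an interaction, and limma called 0 of 12505 genes (0%), with 212 at an unadjusted p under 0.05. The lowest p included those of Otub2, with 0.26 in wild-type and -0.79 in heterozygote hosts, and Nox4, with -1.63 and 0.31.

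No difference by host irradiation passed a test. Irradiated hosts carried 9 of 14 fast and 11 of 14 slow tumors (Fisher's exact test, two-sided, p = 0.678). In wild-type hosts the score was 10.67 ± 0.48 (SD, n = 23) after irradiation and 10.78 ± 0.56 (SD, n = 9) after sham treatment (exact permutation test, two-sided, p = 0.557). The 18 tumors of irradiated heterozygote hosts scored 10.43 ± 0.47 (SD) and the 6 of sham heterozygote hosts 10.72 ± 0.45 (SD), with p = 0.212 by the same exact test. Without the arrays of low 18S the difference in wild-type hosts changed sign, from -0.12 to 0.13.

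Genes that follow the same score were also sought in the 28 middle tumors, which neither group held. Their scores spanned 0.66 in wild-type and 0.67 in heterozygote hosts, against 2.19 and 2.18 over all tumors of those hosts. A limma regression on the score called 3 genes (0.0240%), all with positive slopes, and 0 with negative slopes, with 531 positive and 312 negative at an unadjusted p under 0.05. The 3 genes were Cenpe, with a slope of 1.51 ± 0.27 (SE) per unit of score, the condensin subunit Ncapg with 0.98 ± 0.18, and Iqgap3, a scaffold protein, with 1.02 ± 0.19, each at an adjusted p of 0.0396. Cenpe and Ncapg belong to the mitosis list, so their slopes on this score are no separate evidence. The middle tumors labelled 19 and 38 (sham heterozygote hosts), with 3′ minus 5′ differences of 0.69 and 0.54, were kept in this fit. Of the 411 genes 389 had a positive slope here and 188 also an unadjusted p under 0.05, where 52.5% and 4.25% of all genes did. For the 260 genes outside the cell cycle lists these counts were 241 and 93. Of the 50 lower genes 40 had a negative slope and 10 also an unadjusted p under 0.05, against 2.50% of all genes.

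The genes most like the score in the middle tumors were Ncapg (Pearson r = 0.77 over 28 tumors, host genotypes centred), Iqgap3 (0.76), Cenpe (0.75), Tacc3 (0.75), Cdk1 (0.74), Kif18b (0.73), Bub1b (0.72), Fbxo5 (0.69), Kif2c (0.69) and Smc2 (0.68). Of these 10, Iqgap3 alone was not called between fast and slow tumors, with a difference of 0.62 (adjusted p = 0.122). The 10 genes with the lowest r, from Aagab (-0.65), Pias1 (-0.64) and Alg1 (-0.63) to Oaz2 (-0.59), had differences between fast and slow tumors of 0.02, -0.11, -0.13 and 0.01 for those 4, and no member of the 10 was called there. Of the 10, Aagab, Pias1, Arhgef12, Gm16845, S1pr2, Tmed3 and Oaz2 lie on chromosome 9, and Alg1, Itm2b and Cds1 lie elsewhere. The median slope in the middle tumors was -0.30 on chromosome 9, against 0.015 over all genes outside the cell cycle lists. The chromosome's median difference between fast and slow tumors was 0.03. This grouping was noticed after the values were seen and was not tested.

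**Figure D4:**
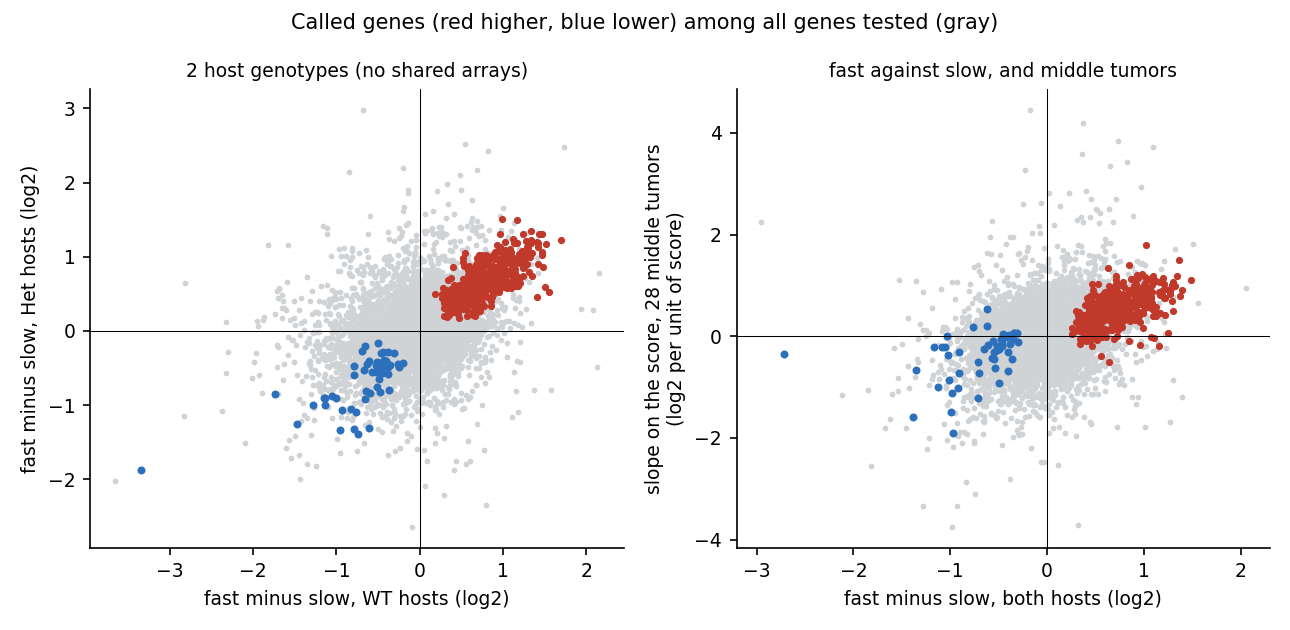
Left, log2 difference between fast and slow tumors in wild-type (WT) hosts (x axis) and Tgfb1 heterozygote (Het) hosts (y axis) of all 12505 genes. Right, the difference over both hosts (x axis) and the slope on the score in the 28 middle tumors (y axis, log2 per unit of score), where 389 of the 411 higher genes (red) lie above 0 and 40 of the 50 lower genes (blue) below.

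Genes on chromosome 2 were called more often than those of other chromosomes, a pattern noticed after the values were seen and not tested. Of its 963 genes outside the cell cycle lists 64 were higher in fast tumors (6.65%), against 2.12% of all 12293 such genes and 3.43% on chromosome 3, the next highest. The median difference was 0.11 on chromosome 2, with 0.10 in wild-type and 0.12 in heterozygote hosts, and -0.0014 over all these genes. Chromosome 8 lay about as far the other way, with a median of -0.10, -0.11 in wild-type and -0.08 in heterozygote hosts. The calls on chromosome 2 lay along its whole length but were most frequent beyond 120 Mb. Calls numbered 12 of 289 genes (4.15%) in the first 60 Mb, 16 of 242 (6.61%) from 60 to 120 Mb and 36 of 432 (8.33%) beyond. They include Arhgap11a, Oip5, Mastl and Knstrn, named above, and next by p Selenoh, a selenoprotein that rose by 1.08 ± 0.16 (SE) (limma, adjusted p = 8.99e-05). The chromosome's median per tumor, relative to all genes and centred by host, ran from -0.0024 to 0.22 in fast and -0.10 to 0.05 in slow tumors of wild-type hosts, and from 0.02 to 0.23 against -0.04 to 0.09 in heterozygote hosts, so the groups overlapped.

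A gene of the score lies on that chromosome, Bub1 at chr2:127800197-127831859 (GRCm38.p6), while Mki67 and Top2a lie on chromosomes 7 and 11. With tumors ranked without Bub1, 40 of the 963 genes were higher (4.15%), against 1.81% of all, and the median difference was 0.08. Without the 3 arrays of high 3′ minus 5′ difference 35 were (3.63%, against 1.07%). In the middle tumors the median slope of the chromosome was 0.0014, against 0.015 over all genes.

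**Figure D5:**
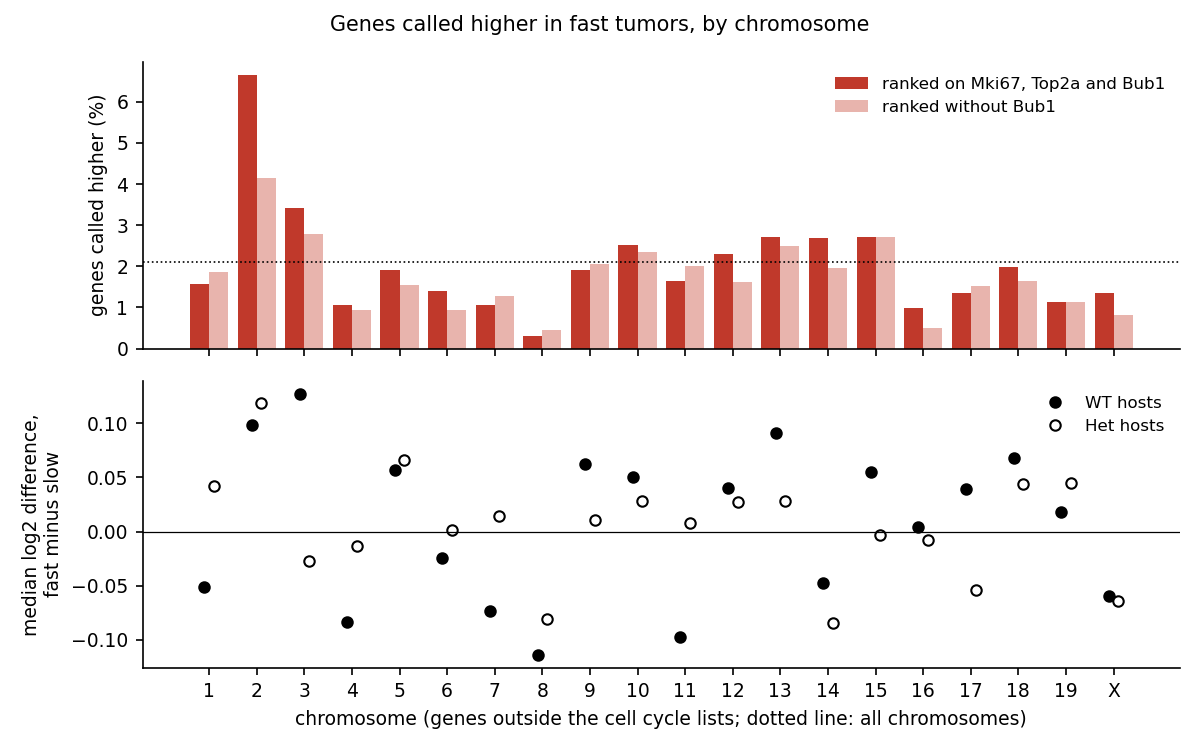
Top, share of genes called higher in fast tumors by chromosome (y axis, percent), with tumors ranked on Mki67, Top2a and Bub1 (dark) or without Bub1 (light), the dotted line marking 2.12% for all chromosomes under the first ranking. Bottom, median log2 difference between fast and slow tumors in wild-type (WT, filled) and Tgfb1 heterozygote (Het, open) hosts, where chromosome 2 lies at 0.10 and 0.12.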

How the data were processed

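Total RNA of 56 tumors, 100 ng each, was labelled and hybridized to Affymetrix 3′ arrays, per the labels' protocols. The deposited log2 values per probe set came from RMA run by the authors, per the submitters' processing notes, which corrects background, normalizes by quantiles and summarises probes (version not stated). Array medians were 5.92 to 6.00 in wild-type and 5.57 to 5.71 in heterozygote hosts, so levels were compared only within a host genotype, with genotype as a block.

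Of 45101 probe sets the 34958 with 1 gene symbol were used, 932 had several and 9211 were unnamed here. Probe sets above 5.83, the overall median, on 6 or more arrays were kept, and each gene was read from its probe set of highest mean, which left 12505 genes beside the score genes, 12486 of them matched to GRCm38.p6. Ccnb1 had no named probe set.

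Fits used limma 3.58.1 in R 4.3.3 (lmFit, eBayes, Benjamini-Hochberg adjustment at 0.05), tested on simulated data. Named genes were the 15 with the lowest p per direction outside the cell cycle lists, 2 to 4 members of each other list by lowest p, the largest and smallest differences of each cell cycle list, the whole G1 list, Tgfb1, Esr1, the lowest p of the interaction and the 10 genes per direction most like the score, of which the text gives a part. The members, the lists and the rules were chosen with earlier results of these data known. The 3′ minus 5′ measure is the difference between 3′ and 5′ probe sets of the control transcripts. The first promoter of a gene in the sequence table was used. Alternatives covered filters, normalization, the ranking, covariates, hosts and each tumor left out. Joint quantile normalization also ranked the tumors anew. No 2 arrays were identical (highest correlation 0.990), and precision is limited by the number of tumors. Levels of the deleted gene are not given here.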

Additional observations from a re-analysis of the deposited data

Results flagged for a closer look

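A tumor far from the others of its group marked 32 of 300 combinations of a measure with a group of 6 or 8 tumors, where chance marks about 1 in 20. Differences between hosts gave no such result, since no gene passed the interaction test.

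The slow tumor labelled 57 (irradiated wild-type host) was the most frequent. Its 3′ minus 5′ difference was 0.91 and the next of its group 0.25. It was the lowest of its group for Knstrn (7.40), Nop56 (9.20), Ranbp1 (11.08), Csn1s2a (8.44) and Iqgap3 (6.48), and the highest for Ypel5 (11.14). The slow tumor labelled 4 (irradiated heterozygote host), the other with a high 3′ minus 5′ difference and the lowest score, was lowest for Knstrn (7.50).

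The slow tumor labelled 46 (sham wild-type host) had the highest means of the endothelial list (11.51, next 8.30), the mast cell list (8.13, next 5.63) and the adipocyte list (9.06, next 8.43), and the lowest Spint2, an epithelial protease inhibitor (11.64). The slow tumor labelled 24 (irradiated wild-type host) had the highest T cell list mean (8.22, next 6.82) and the lowest Mastl (6.10), Itga6 (11.06) and Sparcl1 (10.27). Among slow tumors of heterozygote hosts, the one labelled 23 had a muscle list mean of 6.06, the one labelled 52 a B cell list mean of 6.25, the lowest of the group, and the one labelled 6 the highest Mtbp (7.68).

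Among fast tumors, the one labelled 60 (sham wild-type host) had a muscle list mean of 10.23 (next 5.55) and a mast cell list mean of 6.10 (next 5.44). The one labelled 15 (sham heterozygote host) had the lowest epithelial junction list mean (7.70, next 9.92), Spint2 (10.29) and Itga6 (9.88), and the highest mast cell list mean (5.53). The one labelled 58 (sham heterozygote host) had the highest basal list mean (9.22, next 7.97), Cdk4 (11.62) and Iqgap3 (8.64). The one labelled 26 (irradiated heterozygote host) had the lowest Ccnd1 (10.73, next 12.44) and the highest adipocyte list mean (8.51). The one labelled 12 had the highest B cell list mean (8.54) and the one labelled 16 the lowest S100a13 (8.39), both from irradiated wild-type hosts.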

How the results depend on the processing

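Against 411 genes higher and 50 lower, a regression on the score over all 56 tumors called 1005 and 347. The counts were 154 and 5 in wild-type hosts alone, 3 and 0 in heterozygote hosts alone (997 genes there at an unadjusted p under 0.05), and 255 and 19 in irradiated hosts alone. Without arrays of low 18S 266 genes were higher, and without those of high 3′ minus 5′ difference, chosen after seeing the data, 260. Lower genes alone moved by over 1.5 times with all arrays quantile normalized together (84), array weights (106), narrower groups (17), wider groups (88), a score without Top2a (113) and a score from all probe sets (97). With each tumor left out in turn the counts ran from 358 to 460 and from 33 to 74, and 33 lower genes came without either of the fast tumors labelled 16 and 15. The interaction stayed at 0 under every alternative run. The regression in middle tumors called 7 genes with no filter. The score difference by irradiation in wild-type hosts became 0.13 without low 18S arrays. The fast minus slow difference in 18S, 0.15, became -0.25 with narrower and -0.11 with wider groups, -0.12 after quantile normalization and -0.39 without Bub1. The causes were not tested. The ranking without Ccnb1 was not run, since it is the ranking used.

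Over 23 alternative settings, 60 named genes lost a call 166 times, in 43 genes, and gained one 18 times, in 8. A gene that the filter of a setting left out was counted as neither there. Signs that turned belonged to genes that were not called. Ccnd1 became -0.081 in the regression, -0.11 with the score from all probe sets, -0.028 in heterozygote hosts and -0.13 in irradiated hosts, and ran from -0.0011 (without the tumor labelled 53) to 0.22 with single tumors left out. Cdkn1a became 0.037 with the 3′ minus 5′ difference as covariate, 0.076 in wild-type hosts, 0.088 in irradiated hosts, 0.033 without low 18S and 0.051 without high 3′ minus 5′ arrays. Cdkn1b became -0.084 with wider groups, -0.061 without Mki67 and -0.10 in heterozygote hosts. Tgfb1 became 0.020 with that covariate, 0.15 in heterozygote hosts, 0.098 without the endothelial-rich slow tumors and 0.12 without high 3′ minus 5′ arrays, and ran from -0.32 to 0.031 (without the tumor labelled 46) with single tumors left out. Otub2 became 0.26 in wild-type and Nox4 0.31 in heterozygote hosts. No paired analysis was possible because the numbers in the labels do not recur across groups.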
